A study of Mus musculus with 3 samples.

Results

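Transcripts of the epidermal growth factor (EGF) family were examined in mouse regulatory T cells (Tregs) that had been through inflammation. The family was taken as 9 genes chosen by symbol, out of 55536 genes in the deposited tables: the ligands Areg, Hbegf, Ereg, Tgfa, Btc and Egf and the receptors Egfr, Erbb2 and Erbb3. Polyadenylated RNA came from primary cells of 12-week-old mouse material, described in the labels as derived from an activated Treg. There were 3 libraries, called technical replicates of 1 biosample from 1 donor, so all samples form 1 group and no condition can be compared. Strain, genotype, inflammatory treatment and sorting gate are not given in the sources used here, and nothing in the labels ties the libraries to separate mice. All tests below therefore describe the spread between these libraries.

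The EGF family signals through a small set of related receptors. Ligands are made as membrane-anchored precursors, are cut free by ADAM proteases, and bind ErbB receptor pairs on the same or nearby cells. Amphiregulin, encoded by Areg, binds EGFR with low affinity and is known as a product of tissue Tregs that helps epithelium and muscle repair. ErbB2 has no known ligand of its own and ErbB3 has a weak kinase, so these receptors work as partners in mixed pairs.

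The libraries held 35592007, 31611296 and 37728087 expected counts on genes, which are reads shared among genes by a model. Of 7 Treg markers, 7 were detected, meaning a TPM (a transcript level scaled by transcript length and library size) of at least 1 in every library. Foxp3, the lineage factor of Tregs, stood at 98.1, 98.4 and 96.5 TPM in libraries 1 to 3. The markers were not all this even: Ctla4 stood at 323, 230 and 289 TPM, and Ikzf2 and Tnfrsf18 were also lowest in library 2. The TPM of Il2ra, Cd4 and Cd3e was not lowest there. Library 3 stood apart in 1 respect. A list of 12 salivary gland genes held 5.68% of its TPM, against 0.000582% in library 1 and 0.00112% in library 2. Tests and ratios between libraries below therefore used counts per library scaled with trimmed mean (TMM) factors, and for the members also pairs of libraries. Levels per library are also given in TPM, which was not adjusted for the gland share of library 3.

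The start of Areg carries several short motifs close together, and its upstream sequence is shown for that reason beside that of Btc, another ligand gene on the same chromosome. Both runs are the 250 bases before the gene start in RefSeq (build GRCm38.p6), read 5′ to 3′ on the gene's strand, with motif matches in capitals.
Areg, chr5:91139349-91139598, plus strand: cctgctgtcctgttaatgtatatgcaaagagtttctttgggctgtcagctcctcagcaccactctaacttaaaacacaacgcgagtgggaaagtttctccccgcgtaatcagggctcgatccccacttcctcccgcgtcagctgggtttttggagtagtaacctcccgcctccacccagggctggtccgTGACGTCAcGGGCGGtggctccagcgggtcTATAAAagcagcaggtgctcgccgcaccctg
Btc, chr5:91402995-91403244, minus strand: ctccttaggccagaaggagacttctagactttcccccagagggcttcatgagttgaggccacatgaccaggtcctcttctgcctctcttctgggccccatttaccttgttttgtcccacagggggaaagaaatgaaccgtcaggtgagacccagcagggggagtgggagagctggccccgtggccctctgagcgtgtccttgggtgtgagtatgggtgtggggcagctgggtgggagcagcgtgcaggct

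In the Areg sequence the capitals mark, in order, the palindrome TGACGTCA of the cyclic AMP response element, the GC box GGGCGG and the TATA box TATAAA. They began 61, 52 and 31 bases before the gene start and did not overlap. Among 32851 promoter windows of the same length, searched on both strands, TGACGTCA was found in 1.55%, GGGCGG in 32.7% and TATAAA in 12.4%. The AP-1 motif TGANTCA, present in 6.75% of windows, was not in the Areg window. Of the 9 genes, 6 had promoter entries, and Areg alone among these 6 held TGACGTCA or TATAAA in its window. GGGCGG was also found in the windows of Tgfa and Egfr, and none of the 4 motifs was found in that of Btc. A match is a string of letters and does not show that a factor was bound there in these cells.

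Areg was the ligand transcript with the highest level, and Erbb3 the receptor transcript with the highest level. Of the 9 genes, 3 were detected: Areg, Erbb3 and Hbegf. Over all genes the share was 23.2%, and over protein-coding genes 47.6%. Another 4 genes, Erbb2, Egfr, Tgfa and Ereg, stayed below 1 TPM in every library, and Egf and Btc reached it in 2 libraries each.

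**Figure D1:**
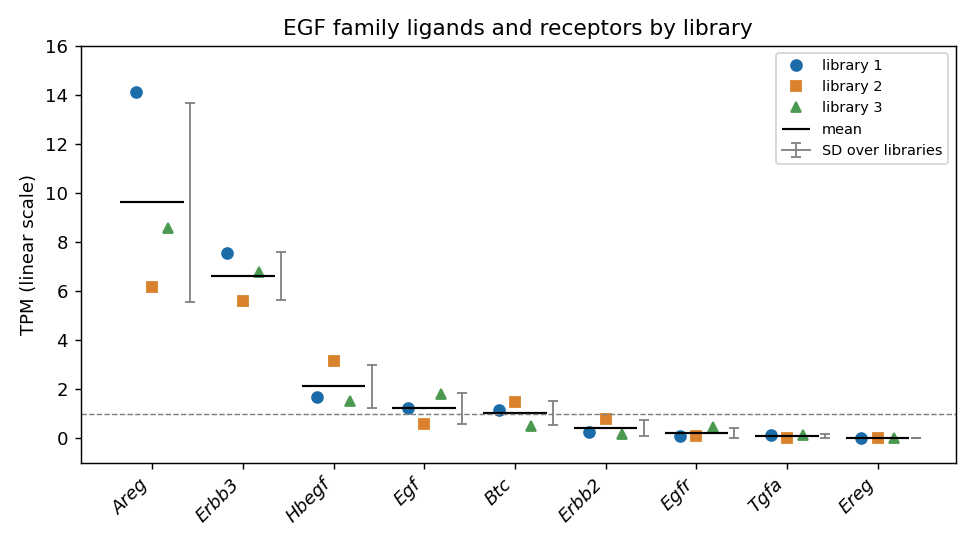
TPM (linear axis) of each of the 9 genes in libraries 1 to 3, with the mean as a line and the SD over the 3 libraries as a grey bar beside it. The dashed line marks 1 TPM. Areg spans 6.18 to 14.1 TPM and overlaps the 5.59 to 7.54 TPM of Erbb3, and the other 7 genes stay at or below 3.13 TPM.

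Areg (ENSMUSG00000029378.5, chromosome 5, 91139599 to 91148432, plus strand, mm10) has 1 annotated transcript of 6 exons and 1215 bases, so its level did not depend on how reads were shared among isoforms. It stood at 14.1, 6.18 and 8.58 TPM in libraries 1 to 3, from 363, 140 and 241 expected counts. Library 1 was highest and library 2 lowest. The authors' intervals, which surround a posterior mean rather than the TPM itself and whose level is not stated, ran from 11.9 to 14.6, from 4.81 to 6.71 and from 7.04 to 9.09 TPM and did not overlap. The mean was 9.62 ± 4.07 TPM (SD, n = 3 libraries, as for every mean given here), which placed Areg above 30.3% of detected genes, in the lower part of the expressed range.

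The other ligands lay below Areg in every library. Hbegf, which encodes heparin-binding EGF-like growth factor, stood at 1.68, 3.13 and 1.53 TPM, with a mean of 2.11 ± 0.884. Egf, the founding ligand, stood at 1.25, 0.570 and 1.82 TPM, and Btc, which encodes betacellulin, at 1.15, 1.47 and 0.510 TPM. Neither Egf nor Btc was highest where Areg was highest. Tgfa, which encodes transforming growth factor alpha, had 12, 0 and 8 expected counts, or 0.150, 0.00 and 0.150 TPM, and the 0 in library 2 allows up to 0.0802 TPM (3 counts). The authors' interval for Tgfa in that library reached higher, from 0.0232 to 0.517 TPM. Ereg, which encodes epiregulin, had a single read in library 1 and none in libraries 2 and 3, where 0 counts allow up to 0.0379 and 0.0305 TPM. These limits cover counting error of reads only.

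In log2(TPM + 1), Areg exceeded Hbegf by 1.74 ± 0.86, Egf by 2.24 ± 0.49, Btc by 2.34 ± 0.70, Tgfa by 3.21 ± 0.45 and Ereg by 3.34 ± 0.53. The pseudocount of 1 understates the gap to ligands near 0. A pair of genes was called apart where 1 gene was higher in each library, its lowest value lay above the highest of the other gene, and the authors' intervals were separate in each library. All 5 comparisons of Areg with another ligand were apart. They stayed apart without any 1 library, and in levels from a second set of counts, made against the older GENCODE annotation M4, for which there are no intervals and the first parts of the rule were used alone. An exact permutation test that flips signs (two-sided) returned p = 0.25 for each, the smallest p that 3 libraries allow. The smallest of these gaps was in library 2, where Areg stood 0.80 above Hbegf on that scale.

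**Figure D2:**
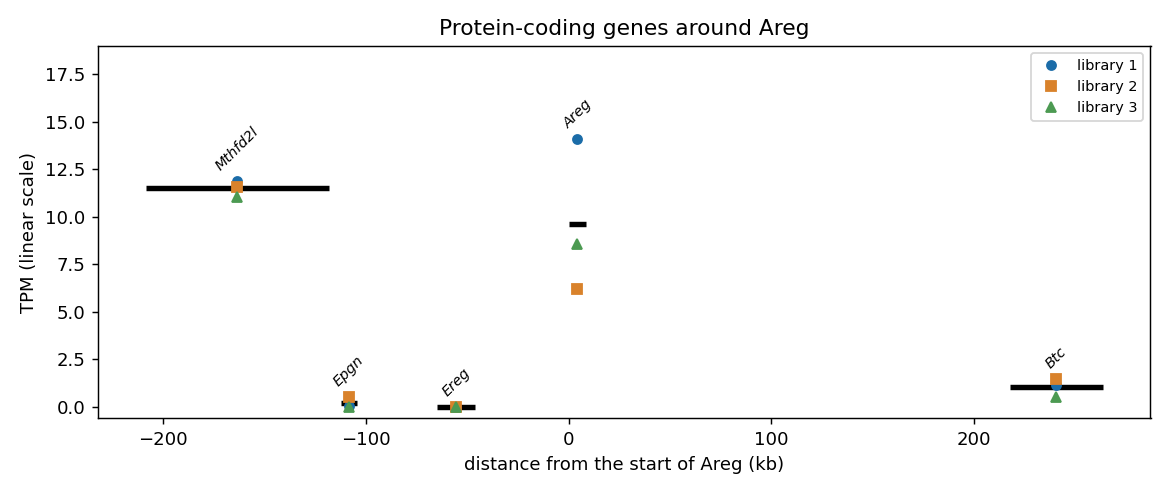
TPM (linear axis) of protein-coding genes around Areg against distance from the start of Areg in kb. Each bar spans the gene at its mean TPM and points are the 3 libraries. Mthfd2l lies between 11.1 and 11.9 TPM in all libraries, Areg between 6.18 and 14.1 TPM, and the ligand genes Epgn, Ereg and Btc at or below 1.47 TPM.

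The ligand genes of chromosome 5 sit in 1 stretch, and within it Areg was the member with a clear level. Ereg (91074622 to 91093646, plus strand, mm10) ends 45.95 kb before Areg starts, with no annotated gene between them. Epgn, which encodes epigen, lies before Ereg and had 2, 17 and 0 expected counts. Btc (91357261 to 91402994, minus strand) has its near end, the 3′ end, 208.8 kb beyond Areg, with 2 annotated genes between, neither of them protein-coding. Of those, Gm19619 had 0, 0 and 11 counts and Gm23092 had 0 in each library. Mthfd2l, an enzyme gene of folate metabolism on the other side of Epgn, stood at 11.9, 11.6 and 11.1 TPM, a narrow range beside that of Areg.

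Among receptors, Erbb3 (ENSMUSG00000018166.8, chromosome 10, 128567523 to 128589652, minus strand, mm10) stood at 7.54, 5.59 and 6.76 TPM, with a mean of 6.63 ± 0.981. All of its reads were given to Erbb3-201, its only annotated transcript, of 28 exons. Its 992, 648 and 972 expected counts made it the member with the most reads. Over the 3 libraries it had 3.51 times the counts of Areg, on a transcript 4.95 times as long, so that per length Areg was the higher by 1.45-fold in mean TPM. Areg and Erbb3 were not apart, since their ranges overlapped. Without library 2 they were apart, by 0.56 in log2(TPM + 1), and in levels from M4 counts too, by 0.78.

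The usual receptors of amphiregulin and its partners were near the lower limit of the data. Egfr, the receptor that binds amphiregulin, had 7, 6 and 17 expected counts, or 0.11, 0.10 and 0.44 TPM. In the same 165956-base gene region on chromosome 11, the antisense gene Egfros had 14, 0 and 5 counts. Whether the counting used strand is not given in the sources used here, so reads of the pair may not be separable. Erbb2 stood at 0.260, 0.770 and 0.180 TPM, from 28, 74 and 22 counts, all given to its protein-coding transcript. Erbb4, the fourth receptor of the family, had 3, 3 and 2 counts. Erbb3 exceeded Erbb2 by 2.46 ± 0.49 and Egfr by 2.65 ± 0.26 in log2(TPM + 1), and both pairs were apart.

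In the order of mean TPM (Areg, Erbb3, Hbegf, Egf, Btc, Erbb2, Egfr, Tgfa, Ereg), only 1 of 8 neighbouring pairs was apart. That pair was Erbb3 over Hbegf, by 1.32 ± 0.56, and in levels from M4 counts it was no longer apart, at 0.12. From Hbegf down, no neighbouring pair in this order met the rule for apart. Btc was above Erbb2 in each library, by 0.536 ± 0.213, but their ranges over libraries overlapped. Of all 15 pairs compared, 8 were apart.

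Several members differed between libraries beyond the Poisson noise of counting reads. A chi-square test with Benjamini-Hochberg adjustment at 0.05 over all genes called 6 of the 7 members with a mean count of at least 10. Over all 18253 genes tested it called 77.2%, so the members' count does not set them apart. By mean count, 68.7% were called between 10 and 100, 79.2% between 100 and 1000, and 84.8% above that. The members did not move as a group, since the highest library was library 1 for Areg and Erbb3, library 2 for Hbegf, Btc and Erbb2, and library 3 for Egf.

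**Figure D3:**
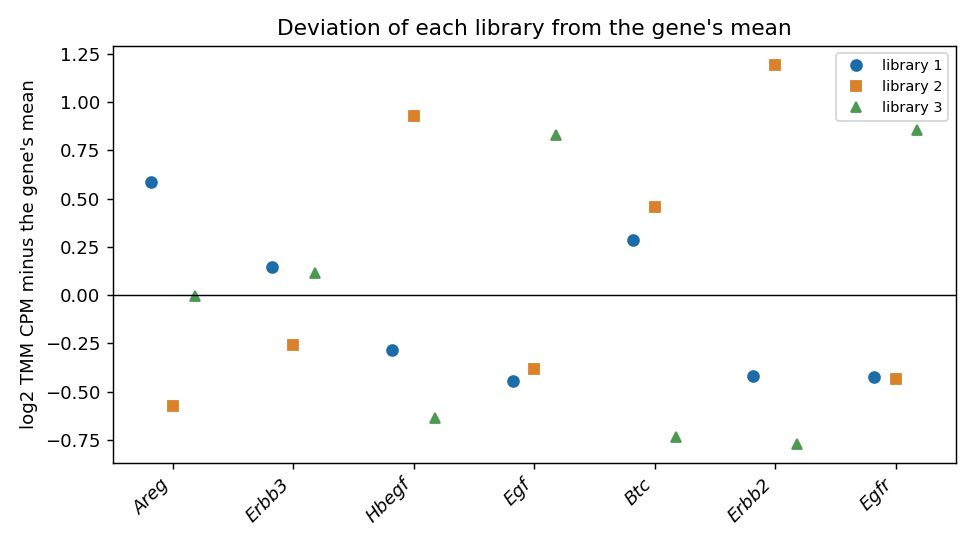
Log2 of TMM-scaled CPM (counts relative to library size, not to length) in each library minus the gene's mean over the 3 libraries, for the 7 members with a mean count of at least 10. Library 2 is the lowest for Areg and Erbb3, and by a small margin for Egfr, and the highest for Hbegf, Btc and Erbb2, and library 3 is the highest for Egf and Egfr.

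Areg was the one member that differed in each pair of libraries. Its TMM-scaled CPM was 9.91, 4.43 and 6.58, and the 3-library test gave an adjusted p of 6.64e-16 (chi-square, Benjamini-Hochberg). Library 1 was 2.24-fold above library 2 (adjusted p = 1.16e-15, with 60.9% of all genes called between them) and 1.51-fold above library 3 (adjusted p = 4.22e-06, 49.1% called). Library 2 was at 0.674 of library 3 (adjusted p = 0.00051, 57.7% called). Among genes with mean counts from 100 to 1000, the range that holds Areg, 12.7% had their highest library at 2 or more times their lowest, and above 1000 this share was 0.475%. The order of Areg, with library 1 highest and library 2 lowest, was that of 20.0% of all genes tested. In the M4 counts Areg had 247, 103 and 181 reads, with an adjusted p of 6.19e-10.

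For the other members 1 library made the difference. Erbb3 was 1.32-fold higher in library 1 than in library 2 (adjusted p = 1.53e-07, chi-square with Benjamini-Hochberg), while libraries 1 and 3 were at a ratio of 1.02 (adjusted p = 0.731) and library 2 was at 0.773 of library 3 (adjusted p = 1.69e-06). Hbegf in library 1 was at 0.432 of library 2 (adjusted p = 7.35e-09), and library 2 was 2.96-fold above library 3 (adjusted p = 2.24e-12), but libraries 1 and 3 were not called (adjusted p = 0.245). Erbb2 likewise was 3.90-fold higher in library 2 than in library 3 (adjusted p = 1.01e-08) and in library 1 at 0.327 of library 2 (adjusted p = 4.94e-07), with libraries 1 and 3 not called (adjusted p = 0.50). Btc was lowest in library 3, at 0.955 CPM against 1.94 and 2.18 CPM, and libraries 1 and 2 were not called (adjusted p = 0.557). Libraries 1 and 2 were 2.03-fold (adjusted p = 0.00155) and 2.29-fold (adjusted p = 0.000131) above library 3 in Btc. For genes with mean counts from 10 to 100, where Hbegf, Egf, Btc, Erbb2 and Egfr fall, 68.1% had such a ratio.

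The Hbegf difference was not called in the second set of counts. With M4 counts, Hbegf had 147, 160 and 132 reads in libraries 1 to 3, and the adjusted p was 0.0749, against 74, 148 and 58 expected counts with M21. Hbegf alone among the 9 members had more reads in M4 than in M21 in each library, and the reason could not be settled, so neither set of its counts is preferred here. The other members called in M21 were also called in M4, where 52.2% of all genes tested were called. Hbegf was also the member with several transcripts among those detected. The protein-coding Hbegf-201 took 76.1%, 78.4% and 48.3% of its TPM in libraries 1 to 3, a mean of 67.6 ± 16.7%, and 2 retained-intron transcripts took the rest. These shares are model estimates from few reads.

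Egf was higher in library 3, the library with salivary gland transcripts. Its expected counts were 52, 47 and 126, and libraries 1 and 2 were at a ratio of 0.955 (adjusted p = 0.857, chi-square with Benjamini-Hochberg). Library 1 was at 0.413 of library 3 (adjusted p = 2.43e-07) and library 2 at 0.433 (adjusted p = 2.07e-06). M4 counts gave 12, 19 and 75 reads. The kind of transcript differed as well: protein-coding transcripts of Egf held 6.25, 1.70 and 97.2 expected counts in libraries 1 to 3. In library 2 nearly all reads, 45.3, were given to Egf-204, which the annotation classes under nonsense-mediated decay. In library 1 most, 37.2, were given to retained-intron transcripts. These splits share few reads among 9 annotated transcripts. A further antisense gene over the start of Egf, 6330410L21Rik, had 1, 13 and 5.28 counts.

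**Figure D4:**
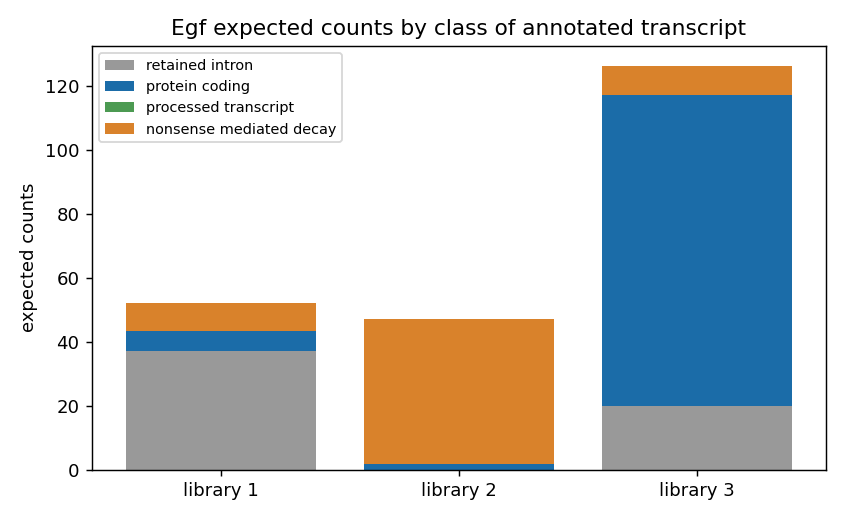
Expected counts of Egf in each library (bars from 0), split by the annotated class of the transcript that the authors' model gave them to. Protein-coding transcripts hold 97.2 counts in library 3 and 6.25 and 1.70 in libraries 1 and 2, and the processed transcript class, at most 0.13 counts, is too small to see.

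Salivary gland is a textbook source of Egf in the mouse, and the gland markers moved with it. Of the 12 salivary gland markers, 2 were detected in all libraries, and their summed TPM was 5.82, 11.2 and 56791. Bpifa2, a secreted protein of saliva, was the highest, with 45, 136 and 891348 expected counts. Several markers of the granular duct cells that make Egf in the submandibular gland were near 0 in library 3: Klk1 had 1.04 counts there and Klk1b22 and Ren1 had 0. Of 8 epithelial markers, 1 was detected, Epcam, at 33.1, 25.9 and 37.4 TPM. The summed TPM of that list, most of it from Epcam, was 36.6, 27.4 and 45.5, with Krt14 at 0.00 TPM in every library. Krt8 had 5, 5.8 and 90.1 expected counts and Krt18 had 80, 9 and 172. Both were highest in library 3, as Epcam and Cdh1 were in TMM-scaled CPM. Krt7 and Krt19, with few counts, were highest in library 1. The part of gland RNA in the Egf level of library 3 was not tested.

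Cells other than Tregs can also make amphiregulin, so their markers were read beside it. None of 7 mast cell and basophil markers was detected, with summed counts of 10, 31 and 19 in libraries 1 to 3, and Fcer1a and Cma1 had 0 counts. Of 11 myeloid and dendritic markers none was detected, with summed TPM of 3.10, 1.47 and 4.02 and Cd14 at 0 counts. Of 5 markers of type 2 innate lymphoid cells, 3 were detected, with summed TPM of 15.1, 16.6 and 15.8. Il17rb, the highest of these, had 9.61, 7.23 and 9.46 TPM and Hpgds 4.07, 1.30 and 2.46 TPM, both lowest in library 2 as Areg was. Il4 went the other way, with 1.31, 8.11 and 3.81 TPM. All 3 were called different between libraries, against 77.2% of all genes tested. Their part in the Areg level was not tested. Il13 had 0 counts in each library and Il5 had 5, 0 and 1. In bulk RNA, fewer cells that make a transcript and less transcript per cell cannot be told apart.

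Genes of tissue and repair Tregs, the cells best known for amphiregulin, shared the low value in library 2. All 15 of this list were detected, and 13 had their lowest TMM-scaled CPM in library 2, each of them called different between libraries (chi-square, Benjamini-Hochberg). Over all genes tested, 38.0% were lowest in library 2 and 29.7% were both lowest there and called. The list's median log2 ratio was 0.59 for library 1 over 2 and 0.34 for library 3 over 2, against -0.014 and -0.004 over all genes. Lower levels of some of these genes in library 2, Gzmb among them, were known when the list was written, so the count is not independent evidence. Markers of CD8, NK and gamma delta T cells moved the other way. Of 5, 3 were detected, with summed TPM of 22.8, 33.2 and 20.8, and the 4 tested were all highest in library 2. All 4 were called, against 77.2% of all genes tested, and the share of all genes highest in library 2 was not counted. Cd8b1, the highest, had 570.2, 651 and 560 expected counts, and Cd8a had 67.1, 129 and 36.0. Ncr1 had 2, 0 and 0 counts. Of 5 B cell markers 4 were detected, with summed TPM of 55.6, 61.0 and 53.8, Cd79b being the highest at 30.8, 31.7 and 28.8 TPM. The part of either cell type in the values of library 2 was not tested.

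**Figure D5:**
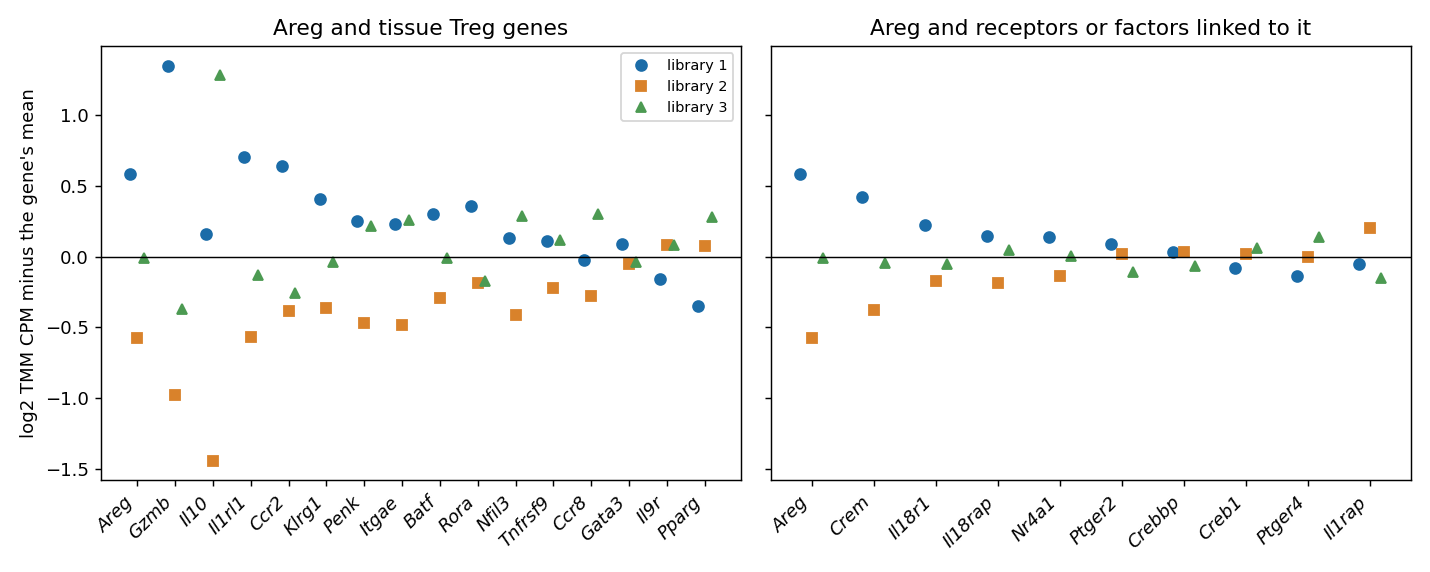
Log2 of TMM-scaled CPM in each library minus the gene's mean, for Areg and the 15 tissue and repair Treg genes (left) and for Areg and the further genes of the list of inputs (right), ordered by the ratio of library 1 to library 2. Library 2 is the lowest for Areg and for 13 of the 15 genes on the left.

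Among these genes, Il1rl1, the receptor for interleukin-33, which is known to induce amphiregulin in Tregs, had 48.8, 19.9 and 23.5 TPM. In TMM-scaled CPM, library 1 was 2.42-fold above library 2. Klrg1, a receptor of effector cells, had 186, 107 and 126 TPM, with the same order of libraries. The list's highest members were Tnfrsf9 at 299 ± 36.8 TPM, Penk at 282 ± 72.8, Batf at 251 ± 56.7 and Klrg1 at 139.8 ± 41.5, and the lowest was Pparg at 1.73 ± 0.257. Pparg, a nuclear receptor of fat-tissue Tregs, was not called different between libraries (adjusted p = 0.0938, chi-square with Benjamini-Hochberg).

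A list of 12 genes, taken as possible inputs to Areg in lymphocytes, was detected in full, against 47.6% of protein-coding genes. In library 2, 7 of the 12 were lowest, against 38.0% of all genes tested. The list was chosen for lymphocytes and with earlier results of these data known, so neither count is independent evidence. It shares Il1rl1, Gata3 and Batf with the tissue list, each of them lowest in library 2, so its count is not separate from that of the tissue list. Of the rest, Il18r1, Il18rap, Crem and Nr4a1 were lowest there, and Il1rap, Ptger2, Ptger4, Crebbp and Creb1 were not. Batf was followed by Gata3 at 134 ± 9.74 TPM, the prostaglandin receptor gene Ptger4 at 112 ± 5.83 and Nr4a1, an early target of antigen receptor signalling, at 94.0 ± 11.1. The lowest was Il18rap, a chain of the interleukin-18 receptor, with 14.1, 8.63 and 10.3 TPM. Of the factors that bind cyclic AMP response elements, Crem had 64.5, 37.1 and 43.4 TPM and was 1.74-fold higher in library 1 than in library 2, while Creb1 was at a ratio of 0.937.

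The genes nearest to Areg in their pattern over the 3 libraries were Abcb10, Gas8, Gm15506, Smim24 and Mtcp1. Likeness was the Euclidean distance between centred log2 TMM-scaled CPM, over the 11205 genes whose mean count was 100 or more, and ran from 0.0125 to 0.0539 for these 5. Abcb10, a mitochondrial transporter, had 295, 114 and 194 counts and Gas8, a part of the ciliary axoneme, had 351, 132 and 233. With 3 libraries, 48 genes lay within a distance of 0.2, and Il1rl1, at 0.173, ranked 37th. This is a description of 3 libraries.

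The machinery that releases the ligands was present. Of 10 genes for shedding and trafficking, 7 were detected. Adam17, the main protease that cuts amphiregulin from the membrane, stood at 53.4 ± 1.81 TPM, and Adam10 at 80.8 ± 7.60. Frmd8, which stabilises the ADAM17 complex, was highest at 188 ± 6.33 TPM, and Rhbdf2, which encodes the ADAM17 escort iRhom2, stood at 9.84 ± 1.89. Adam15 was the fourth highest gene at 22.1 ± 3.76 and Adam12 the lowest at 0.40 ± 0.125. All 10 were called different between libraries, against 77.2% of all genes tested, and 8 were lowest in library 2, against 38.0%. The spread was small for Adam17, at 53.9, 51.4 and 54.9 TPM, and wide for Adam8, at 24.6, 10.2 and 17.0 TPM.

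Adaptors and brakes of ErbB signalling, most of which also serve the antigen receptor, were largely present. Of 17 adaptors and signal transducers 15 were detected, and 11 of 17 were called different between libraries, against 77.2% of all genes tested. Grb2 stood at 192 ± 17.0 TPM, Plcg1 at 162 ± 3.03 TPM and Map2k2 at 150.1 ± 2.28. The docking proteins Gab1 and Gab2, which link growth factor receptors to downstream enzymes, were the 2 not detected, with 10, 0 and 21.3 and with 23, 1 and 17 counts, Gab2 being the lowest of the list at 0.117 ± 0.0850 TPM. Of 12 brakes 11 were detected and all 12 were called, beside the same 77.2%. Ptpn1 stood at 143 ± 5.04 TPM, Ptpn2 at 101 ± 13.3, Lrig1, which lowers ErbB receptor levels, at 98.2 ± 4.71 and the ubiquitin ligase gene Cblb at 82.5 ± 8.68. Errfi1, a feedback inhibitor of EGFR, had 4.86, 5.59 and 7.36 TPM, highest in library 3, and Lrig3 was the lowest at 0.423 ± 0.407. Rnf41, a ligase that turns over ErbB3, stood at 33.5 ± 2.49 TPM.

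Neuregulins, of which the products of Nrg1 and Nrg2 bind ErbB3 and those of Nrg3 and Nrg4 bind ErbB4, were low. Of the 5 other ligands in the list, 1 was detected, Nrg4, at 2.48, 2.94 and 2.15 TPM. It did not pass the test between libraries (adjusted p = 0.199, chi-square with Benjamini-Hochberg). Nrg1 had 38, 4 and 15 counts, a mean of 0.37 ± 0.178 TPM. Nrg3 and Nrg2 stood at 0.223 ± 0.0902 and 0.217 ± 0.0208 TPM, and Epgn was the lowest of this list at 0.187 ± 0.281. Of the 4 tested, Nrg1 alone was called different between libraries, against 77.2% of all genes tested. Among genes with mean counts from 10 to 100, where these 4 fall, the share was 68.7%.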

How the data were processed

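Polyadenylated RNA was profiled in 3 libraries of 1 group. The authors' deposited gene tables, quantified against GENCODE M21 on mm10 per the file headers and the sample notes, hold expected counts and TPM. Their interval bounds of posterior mean TPM were read as a score of no stated level, per the file headers. The authors' transcript tables give the percent of a gene's TPM per transcript. Deposited M4 tables hold whole-number counts that level off at high expression (at most 13489 against 891348 expected counts), so levels from them are compressed. The counting program and its use of strand are not given in the sources used here. All 55536 gene identifiers matched M21, and M4 levels used M21 effective lengths.

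Expected counts were rounded and scaled by TMM (edgeR 4.0.16, R 4.3.3). With 1 group no quasi-likelihood contrast was possible, so a chi-square test against Poisson noise compared libraries (mean count at least 10, Benjamini-Hochberg at 0.05). The test treats reads as independent molecules. It was checked only on counts simulated with Poisson noise, its own model, which cannot show how it behaves under other noise. Rows without a mouse gene identifier, 0.170% to 0.218% of counts, were left out. Alternatives used DESeq2 1.42.0 size factors, total counts, M4 counts, other thresholds and libraries left out. Python 3.11.15 and scipy 1.17.1 did the rest.

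All members and lists were chosen with earlier results of these data known. Named were all members, the 4 highest and the lowest of each pathway list, of marker lists the highest and defining markers at 0, genes next to Areg, and the 5 genes most like Areg. Some genes that this rule would name are not reported here. Cxcl2 and further markers of the Treg and epithelial lists were named after their values were seen.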

Additional observations from a re-analysis of the deposited data

How the results depend on the processing

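Of 233 alternative values of 44 results, 14 moved, levels and shares by more than 1 SD over libraries and counts of genes by more than 1.5 times. Another 7 lost a call, 5 gained one, 3 changed sign and 204 did none of these. The changes of sign were in pairs not called apart: with 1 library left out, Egf minus Btc ran from -0.294 (without library 3) to 0.483 in log2(TPM + 1) and Erbb2 minus Egfr from -0.052 (without library 2) to 0.435, and Btc minus Erbb2 was -0.032 in levels from M4 counts. Levels from M4 counts, which level off at high expression, were 30.9 TPM for Areg, 15.3 for Hbegf and 16.9 for Erbb3. With TPM of at least 0.5, 5 members were detected, and with at least 10 expected counts in every library, 6. The count of all genes different between libraries, 14094, was 6270 in M4 counts, which test fewer genes, and 9267 to 11076 with 1 library left out. Member calls fell from 6 of 7 to 3 of 8 without library 2, where Areg, Egf and Btc were still called. They fell to 4 of 6 without library 3. The share called of all genes tested fell too, from 77.2% to 49.1% without library 2 and to 60.9% without library 3. With no filter on low counts 7 of 9 were called, Tgfa (adjusted p = 0.0179, chi-square with Benjamini-Hochberg) added, against 50.1% of all genes tested. Without library 2, Tgfa and Ereg were apart by 0.19 in log2(TPM + 1), and in M4 counts Hbegf over Egf (2.42) and Egfr over Tgfa (0.70) were apart. The cause was not tested. The few reads of Egfr, Tgfa and Ereg leave their order unresolved. No paired comparison of conditions was possible because all libraries form 1 group.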

Other observations

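Rhbdf1, which encodes iRhom1, the second escort of ADAM17, was nearly absent from library 2. It had 99, 1 and 72 expected counts in libraries 1 to 3, or 1.84, 0.02 and 0.97 TPM, and 76, 1 and 61 in the M4 counts. Its relative Rhbdf2, at 905, 554 and 802 counts, did not show such a gap. Cxcl2, a chemokine gene of the same chromosome 5 stretch as Areg, had 104.7, 0 and 65.9 counts. Both genes were singled out after their values were seen. Genes with at most 1 count in a library and at least 50 in both others numbered 28 for library 2, 3 for library 1 and 5 for library 3, beside 18253 genes tested.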
